A study of Mus musculus with 4 samples.

Results

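The 1221 regions described here are broad peaks of H3K79me2, dimethylation of histone H3 at lysine 79, called over protein-coding genes in mouse DN3 thymocytes grown with an inhibitor of the desaturase SCD1 and lying over no peak at all in the matching control. They were chosen by their deposited values. A peak of the inhibitor list had to have q of at most 0.05, a width under 40 kb, at least 1 bp in common with the body of a RefSeq protein-coding gene of mm10, and no base in common with any control peak, however weak. Of 35018 inhibitor peaks, 6528 passed the q limit, 5503 of those were under 40 kb wide, 5237 of those lay over a coding gene, and 1221 of those met no control peak. Both deposited lists together hold 159980 peaks. The lists differ as wholes: the control list is longer, with 124962 peaks, but 804 of its peaks (0.643%) passed the same q limit. The read depth of both libraries is unknown, so the part of depth or of the strength of each precipitation in these regions was not tested.

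The study compared C57BL/6 double-negative thymocytes that developed from haematopoietic stem cells in co-culture with OP9-DL1, a stromal line that presents a Notch ligand, and every group received the cytokines Flt-3L (5 ng/mL) and IL-7 (2 ng/mL). The control group received the vehicle DMSO, and the other group received the SCD1 inhibitor A939572. SCD1 turns stearic acid into oleic acid. Cells were harvested at DN3, the stage at which the T cell receptor beta gene rearranges, and chromatin was precipitated with an antibody to H3K79me2. Each condition had 1 ChIP library, and its input is not analysed here. No value below therefore has a replicate error, and no difference between the conditions has a replicate check or a p-value. The cells came from a co-culture, and no source used here says how completely the stromal cells had been removed.

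H3K79me2 is placed by the methyltransferase DOT1L on nucleosomes of genes that RNA polymerase II is transcribing. The mark is known to begin just after the transcription start, to be strongest in the first part of the gene and to fade towards its end. A broad peak of it therefore usually begins near a start and runs into the gene body.

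Promoters of these regions are shown first, because the mark's position relative to the start is the pattern that the values below turn on. Each line gives the 250 bases before a RefSeq start (GRCm38.p6, the assembly that mm10 names), 5′ to 3′ on the strand of the gene. Capitals mark matches, on either strand, to the GC box GGGCGG, the CCAAT box, the TATA box as TATAAA, the ETS-type motif CCGGAAG, the NRF1 motif, the cAMP response element TGACGTCA, or the E box CACGTG. No motif here is contained in another. Psmc4, a proteasome ATPase, was the only gene among the 8 regions of highest fold enrichment with a listed start under its region (chr7:28050093-28050342, minus strand). The others were chosen after their values had been seen, from regions with a high -log10 q over a start. They are Rps27l, a ribosomal protein paralogue (chr9:66945836-66946085, plus strand), Dhx16, a splicing helicase (chr17:35879528-35879777, plus strand), and Keap1, the sensor that holds NRF2 in check (chr9:21239333-21239582, minus strand). Polr1c, a subunit shared by RNA polymerases I and III (chr17:46248046-46248295, minus strand), and Yipf3, a Golgi protein (chr17:46247830-46248079, plus strand), are transcribed away from each other from 1 such region.
Psmc4: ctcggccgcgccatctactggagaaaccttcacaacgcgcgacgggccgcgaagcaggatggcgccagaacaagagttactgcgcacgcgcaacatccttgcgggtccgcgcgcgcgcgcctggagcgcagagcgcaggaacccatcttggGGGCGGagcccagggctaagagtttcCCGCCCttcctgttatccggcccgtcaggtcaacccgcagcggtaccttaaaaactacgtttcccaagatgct
Rps27l: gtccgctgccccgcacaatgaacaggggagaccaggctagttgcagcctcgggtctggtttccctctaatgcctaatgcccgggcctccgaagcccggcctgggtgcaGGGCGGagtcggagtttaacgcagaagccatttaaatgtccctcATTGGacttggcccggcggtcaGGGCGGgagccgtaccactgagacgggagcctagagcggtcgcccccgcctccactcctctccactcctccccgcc
Dhx16: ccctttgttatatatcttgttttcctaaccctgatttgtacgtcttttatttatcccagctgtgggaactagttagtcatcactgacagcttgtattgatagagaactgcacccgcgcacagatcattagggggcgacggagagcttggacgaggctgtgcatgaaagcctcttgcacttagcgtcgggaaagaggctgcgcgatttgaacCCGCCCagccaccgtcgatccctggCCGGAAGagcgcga
Keap1: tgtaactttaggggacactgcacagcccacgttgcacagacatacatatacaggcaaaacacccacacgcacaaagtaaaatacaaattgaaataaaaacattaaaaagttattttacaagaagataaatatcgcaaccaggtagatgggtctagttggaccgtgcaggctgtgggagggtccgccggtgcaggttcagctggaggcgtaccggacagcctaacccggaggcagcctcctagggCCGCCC
Polr1c: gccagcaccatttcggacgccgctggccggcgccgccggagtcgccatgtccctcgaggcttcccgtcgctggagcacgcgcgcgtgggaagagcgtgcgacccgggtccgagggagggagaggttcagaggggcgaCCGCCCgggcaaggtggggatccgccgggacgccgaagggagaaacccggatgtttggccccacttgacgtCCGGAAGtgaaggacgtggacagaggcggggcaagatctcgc
Yipf3: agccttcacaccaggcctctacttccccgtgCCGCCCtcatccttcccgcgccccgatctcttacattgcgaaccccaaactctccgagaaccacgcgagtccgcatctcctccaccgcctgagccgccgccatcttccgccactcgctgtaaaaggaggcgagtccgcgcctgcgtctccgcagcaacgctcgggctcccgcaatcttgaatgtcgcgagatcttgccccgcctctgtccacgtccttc
All 6 held at least 1 GC box, and none held TATAAA. GC content ran from 49.6% at Keap1 to 70.4% at Polr1c. The ETS-type motif was present at Dhx16 and Polr1c. The 6 do not stand for all regions with a high -log10 q over a start. Among those not printed, Dpm2, Recql5, Sap30bp and Men1 held at least 1 GC box, while Slc35b1, Uqcr11 and Atg101 held no GC box.

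The same count was made for all 17492 coding genes with a listed start, using the most upstream start of each. Of these starts, 635 lay under one of the 1221 regions. Counting every listed start, 674 genes (3.85%) had one there. Among the 635 promoters, 56.2% held GGGCGG (95% Wilson interval 52.3 to 60.03), 23.5% held CCGGAAG (20.3 to 26.9) and 4.72% held TATAAA (3.33 to 6.66). Over all 17492 promoters the shares were 42.7%, 9.15% and 12.4%. The other motifs were found in 35.7% (CCAAT), 9.61% (CACGTG), 2.68% (TGACGTCA) and 1.42% (the NRF1 motif) of the 635, against 36.5%, 6.65%, 1.98% and 1.06% of all promoters. The median GC content was 58.8% against 55.2%, and the median ratio of observed to expected CpG was 0.757 against 0.537. CpG-rich promoters are typical of widely expressed genes. A further 2894 promoters lay under inhibitor peaks of the same q and width limits that did meet a control peak. Of these, 60.5% held GGGCGG (58.7 to 62.2) and 20.7% held CCGGAAG (19.3 to 22.2), intervals that overlap those of the 635. Their median CpG ratio was higher, at 0.812. The share with both a CpG ratio of at least 0.6 and a GC content above 50% was lower under the regions. It was 64.4% (60.6 to 68.0) there and 73.5% (71.9 to 75.1) under peaks that met a control peak. A motif match describes the sequence only.

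Width set these regions apart from the other 4016 genic inhibitor peaks with the same q and width limits. Of all 5237 such peaks 23.3% met no control peak (22.2 to 24.5), a share fixed by the rule. It was 83.9% (77.8 to 88.5) for the 180 peaks under 2 kb, 55.9% of 867 peaks from 2 to 5 kb, 31.4% of 1197 from 5 to 10 kb, 11.7% of 1635 from 10 to 20 kb, and 1.33% (0.840 to 2.09) of 1358 from 20 to 40 kb. A wider peak spans more bases in which a control peak can lie. The regions had a median width of 4.70 kb, a range from 386 bp to 32139 bp and quartiles of 2.86 kb and 8.06 kb. Peaks over weak control peaks only (3530) had a median width of 14.1 kb, and peaks over a control peak with q of at most 0.05 (486) had a median of 21.7 kb. Altogether the regions covered 7.44 Mb, 9.96% of the 74.8 Mb under the 5237 peaks.

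**Figure D1:**
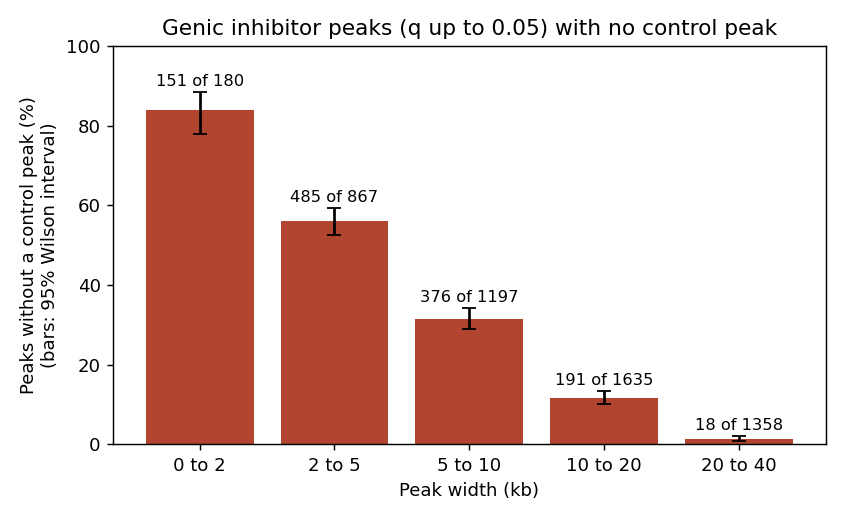
Percent of genic inhibitor peaks with q of at most 0.05 that overlap no control peak (y axis) in 5 width classes in kb (x axis), with 95% Wilson intervals as bars and counts above them. The share goes from 83.9% under 2 kb to 1.33% from 20 to 40 kb.

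Most of the regions were weak calls. Their fold enrichment, a ratio over background deposited by the authors for each peak, had a median of 2.38 with quartiles of 2.20 and 2.63, and 102 of 1221 reached a fold of 3 (8.35%). Their median -log10 q was 2.38. Peaks over weak control peaks only had a median fold of 2.82 and a median -log10 q of 4.0, and peaks over a control peak with q of at most 0.05 had medians of 3.81 and 10.96. Within the class from 2 to 5 kb the median fold was 2.36 for the regions and 2.72 for peaks that met a control peak, and from 10 to 20 kb it was 2.42 and 2.86. Under 2 kb the medians were 2.36 and 2.39. All these folds come from the inhibitor list, and q and fold are measures that the rule used or that come from the same caller, so they describe and do not test.

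At the edges of the rule, the 3 regions with the lowest -log10 q were Entpd6 (1.30211), Camk1d (1.30265) and Clptm1l (1.30345), with folds of 2.07, 2.29 and 2.05. The 3 peaks that were closest below the limit lay over F2rl3 (1.30098), Renbp (1.30056) and Atp6v1h (1.2995), with folds of 2.20, 2.23 and 2.05. At the width limit only 1 peak was left out, a peak of 40675 bp over Pitpna, a phosphatidylinositol transfer protein gene. The widest regions were Arhgap23 (32139 bp), Kifbp (31769 bp), Ptp4a3 (31645 bp), Rnf185 (27695 bp), 5031439G07Rik (27368 bp) and Tmem242 (26122 bp). Their folds lay between 2.22 and 2.50.

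The 5 regions with the highest folds were narrow, covered no listed gene start, and fell in genes whose bodies held no inhibitor peak outside the 1221 regions. Epha4 encodes an ephrin receptor best known from axon guidance (chr1:77367182-77515107, minus strand, 147.9 kb), and it was the only gene called for 3 regions. They were 1197 bp (77373733 to 77374929, fold 9.04, -log10 q 24.1), 717 bp (77382868 to 77383584, fold 3.97, -log10 q 6.38) and 2300 bp (77387794 to 77390093, fold 7.48, -log10 q 18.2). All 3 sat within 16.4 kb, between 125.0 kb and 141.4 kb downstream of the start, towards the end of the gene. No control peak lay in the gene, the nearest being 137.1 kb from the closest of the 3, and these 3 peaks were the whole of the 2.85% of the body that the inhibitor list covered.

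Art5, an ADP-ribosyltransferase (chr7:102096879-102100291), held a region of 702 bp with a fold of 6.10 and a -log10 q of 13.6, 1.75 kb downstream of the start. In Alk, a receptor tyrosine kinase gene of 735.7 kb (chr17:71868988-72604702), a region of 2220 bp with a fold of 5.00 lay 705.1 kb downstream of the start and covered 0.302% of the body. Pgc, the gene of the stomach enzyme precursor pepsinogen C (chr17:47726842-47734478), held one of 1972 bp with a fold of 4.07 in its last part, beginning 5.54 kb downstream of the start. In all, 52.8% of the Pgc body lay under the regions. No listed start lay under any of these 6 regions. Atp6v1h, a subunit of the vacuolar proton pump, held a region of 500 bp with a fold of 3.85, and its start is not in the table used.

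**Figure D2:**
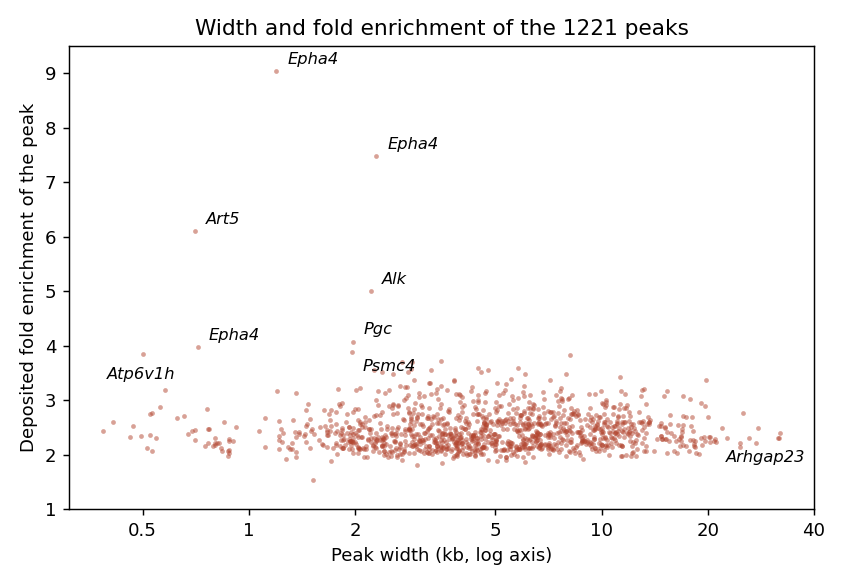
Deposited fold enrichment (y axis) against width in kb on a log axis (x axis) for each of the 1221 regions, with the 8 highest folds and the widest region named by gene. The bulk lies near the median fold of 2.38, and 3 points for Epha4 and 1 each for Art5, Alk and Pgc stand above it at widths under 2.5 kb.

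After Epha4, Art5 and Alk, the highest -log10 q values belonged to regions of Rps27l, Dhx16, Psmc4 and Nop53, and the first 3 of these covered a listed start. Psmc4 (chr7:28041702-28050092) held a region of 1955 bp that began 66 bp before the start and ended 1.89 kb after it, with a fold of 3.88 and a -log10 q of 9.61. The nearest control peak was 11.9 kb away, and the inhibitor list covered 41.2% of the gene in all. Rps27l (chr9:66944624-66949522) held one of 3506 bp that began 410 bp before its most upstream listed start, with a fold of 3.72 and a -log10 q of 11.5. Dhx16 (chr17:35879764-35892670) held one of 2907 bp that began 355 bp before the start, with a fold of 3.70. Nop53, a ribosome biogenesis factor whose start is not in the table (chr7:15937835-15946108), held one of 2725 bp with a fold of 3.71. Each of these 4 gene bodies was free of control peaks.

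**Figure D3:**
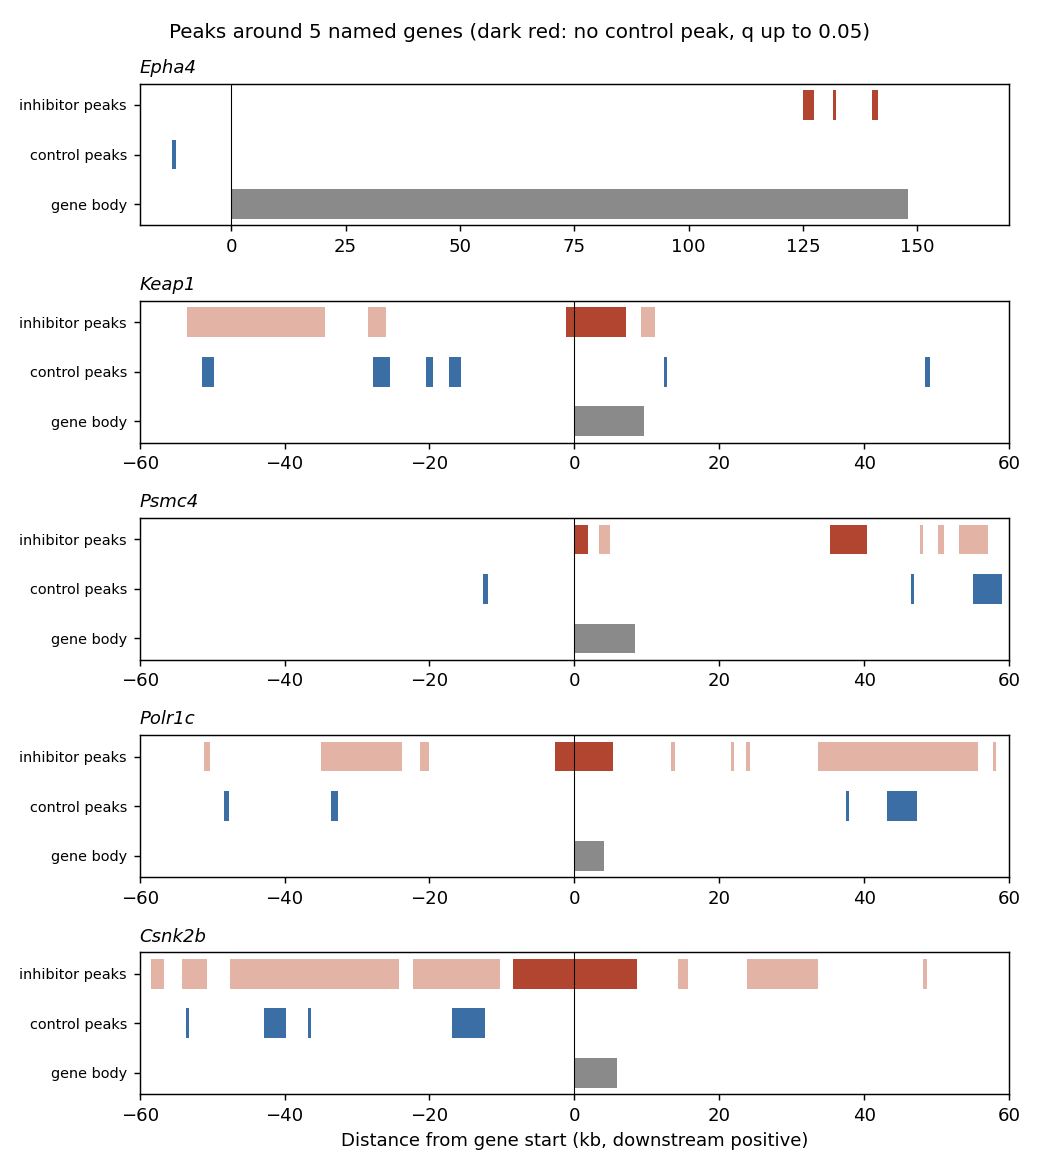
Peaks of both lists around 5 genes, as distance in kb from the gene start (x axis), with rows for inhibitor peaks, control peaks and the gene body. Dark red marks regions absent from the control, which cover the start at Keap1, Psmc4, Polr1c and Csnk2b and lie 125.0 to 141.4 kb downstream of it at Epha4.

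Most regions lay at the beginnings of genes. The called gene of a region is the coding gene that shares most bases with it. For 992 of 1221 regions it had a listed start, and for 498 of these (50.2%, 47.1 to 53.3) a most upstream start lay under the region. The upstream edge lay within 1 kb of that start in 571 (57.6%, 54.5 to 60.6), with a median position of -11.5 bp relative to it. The downstream edge had a median position of 4.54 kb after it. Coverage by the regions was highest 1 kb downstream of the start, where 85.7% of the 992 lay, against 29.0% at 1 kb upstream and 36.9% at 5 kb downstream. Only 6 of 992 lay wholly upstream of the start, and 97 (9.78%) began more than 5 kb downstream of it. These 97 had a median fold of 2.27 and a median called gene of 41.7 kb.

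Inhibitor peaks that met a control peak covered a start more often, while within each class of width the intervals of both groups overlapped. A coding start of any gene lay under 45.7% of the regions (42.9 to 48.5) and 61.3% of the peaks that met a control peak (59.7 to 62.8). From 2 to 5 kb these shares were 42.3% (37.9 to 46.7) and 39.5% (34.8 to 44.5), from 5 to 10 kb 56.1% and 56.0%, and from 10 to 20 kb 60.7% and 64.2%. Starts are listed for 17492 of 21887 coding genes, so each share is a lower bound. Among peaks of 2 to 10 kb, coverage at 1 kb downstream of the start was 88.9% for the regions and 90.2% for the others.

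**Figure D4:**
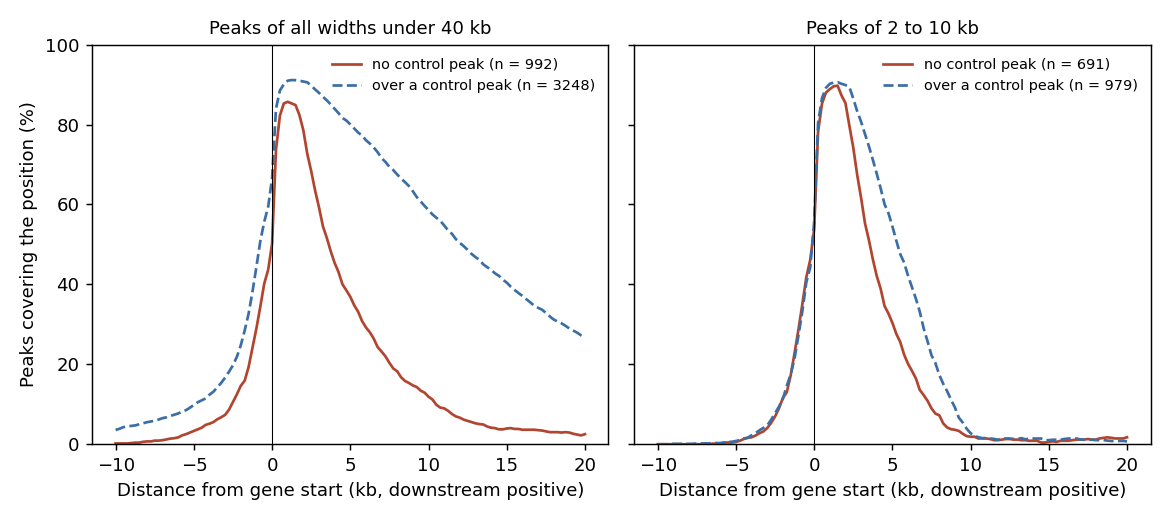
Percent of peaks that cover each position (y axis) against the distance from the most upstream listed start of the called gene in kb (x axis), for all widths (left) and for 2 to 10 kb (right). Both groups have their highest coverage 1 to 1.5 kb downstream of the start, at 85.7% to 91.1%, and peaks without a control peak end sooner.

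Some regions lay over several genes. At least 2 coding genes were met by 265 of 1221 (21.7%, 19.5 to 24.1) and at least 3 by 40. Starts on both strands lay under 92 (7.53%, 6.18 to 9.15), against 11.3% (10.3 to 12.3) of peaks that met a control peak. Counting only the most upstream start of each gene, 69 regions held a pair of starts that point away from each other, 62 of them within 1 kb, with a median spacing of 157 bp. Polr1c and Yipf3 are one such pair, under a region of 7938 bp with a fold of 3.48 and a -log10 q of 8.52. The region over most genes, 6, was one of 13.7 kb on chromosome 17 (24884368 to 24898018, fold 2.59), over Spsb3, Nubp2, Eme2, Mrps34, Nme3 and Mapk8ip3. A region of 17.1 kb in the major histocompatibility complex (chr17:35113429-35130487, fold 2.71) lay over Csnk2b, the regulatory subunit of casein kinase 2, and 4 other genes. Those called for Sharpin (11.4 kb, fold 3.18) and Pcyt2 (11.6 kb, fold 3.11) met 4 genes each. Where a region lies over several genes, it cannot be assigned to 1 of them.

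Control peaks were not far from most regions. The median distance to the nearest one was 9.66 kb, with quartiles of 4.65 kb and 20.2 kb, and 68 regions (5.57%) had one within 1 kb. The nearest control peak had q of at most 0.05 for 39 of 1221 (3.19%, 2.35 to 4.33), beside 0.643% of all control peaks with such a q. The nearest control peak had a median fold of 1.62 and a median width of 1.15 kb. Other inhibitor peaks of any strength lay within 5 kb of 745 regions (61.0%, against 66.8% of peaks that met a control peak), and another inhibitor peak with q of at most 0.05 lay within 5 kb of 240 (19.7%, 17.5 to 22.0). For peaks that met a control peak that last share was 13.2% (12.2 to 14.3).

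By chromosome, the share of genic inhibitor peaks (q of at most 0.05, under 40 kb) that met no control peak was highest on chromosomes 7 (136 of 375, 36.3%, 31.6 to 41.2) and 17 (91 of 277, 32.9%, 27.6 to 38.6). Leaving aside chromosome Y, where none of 3 did, it was lowest on chromosomes 12 (21 of 189, 11.1%, 7.38 to 16.4) and 14 (24 of 168, 14.3%, 9.79 to 20.4). Chromosome X had 27 of 137 (19.7%). The control list held 4707 peaks on chromosome 7, with 2030 coding genes, and 5608 on chromosome 12, with 679 coding genes. The part of the density of control peaks in these shares was not tested.

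The regions touched the bodies of 1500 of 21887 coding genes, 6.85% of them, and covered at least 50% of the body of 491 (2.24%). Of the 1500, 1052 (70.1%) had no control peak anywhere in the body, and of the 491, 469 (95.5%). Another inhibitor peak also lay in 718 of the 1500. The genes had a median length of 13.3 kb (quartiles 6.35 and 26.5 kb) against 21.3 kb for genes under peaks that met a control peak and 17.2 kb for all coding genes. Within most classes of peak width the median called gene of both groups was closer. It was 11.6 and 17.3 kb under 2 kb, and 12.5 and 11.1 kb from 2 to 5 kb. From 5 to 10 kb it was 14.7 and 15.6 kb, and from 10 to 20 kb 19.5 and 21.9 kb. From 20 to 40 kb it was 36.3 and 38.6 kb. A region lay over 5.60% of genes under 5 kb, 10.9% of genes of 5 to 10 kb and 3.15% of genes of 50 kb or more. An inhibitor peak with q of at most 0.05 lay over 17.5%, 35.97% and 37.6% of them. In all, 7593 genes (34.7%) held such a peak, and the 1500 are 19.8% of those. The counts of gene lists below are to be read against 6.85% of all genes and against 19.8% of the genes with such an inhibitor peak. The second share fell with gene length. It was 32.0% of such genes under 5 kb, 30.3% from 5 to 10 kb and 24.2% from 10 to 20 kb. From 20 to 50 kb it was 16.3%, and at 50 kb or more 8.39%.

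Mitochondrial ribosomal protein, mitochondrial import and aminoacyl-tRNA synthetase genes were under these regions more often than the 6.85% of all coding genes. Of 78 mitochondrial ribosomal protein genes, 22 were (28.2%, 19.4 to 39.0), 31.4% of the 70 with an inhibitor peak at q of at most 0.05. Their median length was 7.69 kb, and for all genes of 5 to 10 kb with such a peak the share was 30.3%. Mrpl58, a peptidyl-tRNA hydrolase of that ribosome (chr11:115403724-115412674), met 2 regions that together covered 76.0% of its body, the stronger one 3.82 kb wide with a fold of 3.35. Mrps17 held one of 1.20 kb (fold 3.16) and Mrps22 one of 2.56 kb (fold 2.90), both free of control peaks. Of 26 genes named for the TIM and TOM import machinery, 10 were under a region (38.5%, 22.4 to 57.5). That is 45.5% of the 22 with such a peak, in a list with a median gene of 8.85 kb. The list was matched by name and counts Timmdc1, which is not a translocase subunit despite its name. Timm29 of the inner membrane carrier translocase was wholly covered (5.54 kb, fold 3.38). Tomm7 and Timm50, parts of the outer and inner membrane translocases, were covered over 67.7% and 39.3%, and no control peak lay in any of the 3. Among 37 aminoacyl-tRNA synthetase genes, which load tRNAs with amino acids in the cytosol or in mitochondria, 12 were under a region (32.4%, 19.6 to 48.5). They were 37.5% of the 32 with such a peak. The median gene of the list was 27.8 kb long, and for all such genes of 20 to 50 kb the share was 16.3%. With a -log10 q of at least 3 the count was 1 of 37, and with a fold of at least 3 it was 0. These peaks were weak, with folds of at most 2.66 (Nars2), 2.57 (Tars) and 2.56 (Lars). Of the 37 genes, 2 had at least 50% of the body under regions. The least covered of the 12 were Fars2 (0.479% of the body), Aars (2.48%) and Nars2 (3.08%). In these 3 genes control peaks covered 13.7%, 10.1% and 11.7% of the body. Sars2 and Mrps12 share 1 region and so are not separate counts. Regions over Mrps34, Mrpl41, Mrpl34, Mrpl53, Mrpl43, Timm17b and Aars were called for a neighbouring gene, so they cannot be assigned to the listed gene alone.

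Subunits of the respiratory chain and ATP synthase were under a region for 15 of 85 genes (17.6%, 10.996 to 27.1). Ndufs5 of complex I was covered over 47.5% (fold 3.27), and Atp5k of the ATP synthase (2.02 kb, fold 3.19) and Uqcr11 of complex III (6.80 kb, fold 3.14) were wholly covered. Their share among genes with an inhibitor peak at q of at most 0.05 was 20.0%. For 8 of 48 proteasome genes it was 18.2%, and for all such genes 19.8%. The median lengths of these 2 lists were 7.18 and 11.9 kb. All such genes of 5 to 10 kb and of 10 to 20 kb had shares of 30.3% and 24.2%. Besides Psmc4, the proteasome genes with the highest folds were Psmb7, a catalytic subunit (fold 2.88, over 6.07% of a gene whose control coverage was 17.0%), and the assembly factor gene Psmg3 (fold 2.83, over 70.4%). Cytosolic ribosomal protein genes stood at the other end. Of 81, 78 held an inhibitor peak at that q and 2 were under a region (2.47%, 0.680 to 8.56): Rps27l, and Rpl10a with a fold of 2.28 over 84.7% of its body. The median gene of that list had 50.9% of its body under control peaks, against 3.96% for mitochondrial ribosomal proteins and 0% for the import machinery. By the rule a region lies over no control peak. A low count in a list with high control coverage is therefore in part set by the rule.

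**Figure D5:**
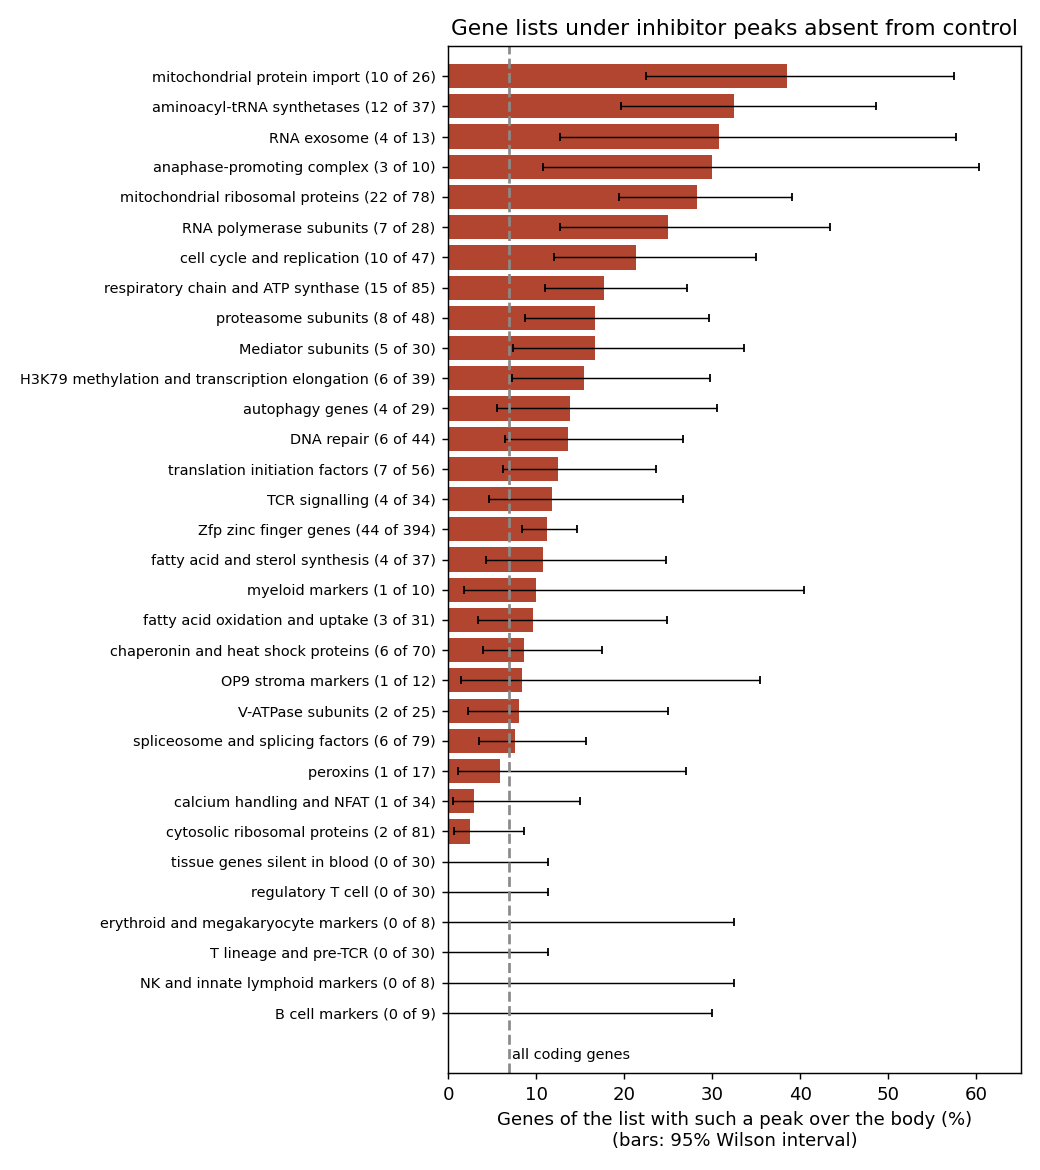
Percent of genes in each of 32 lists that have a region absent from the control over at least 1 bp of the body (x axis), with 95% Wilson intervals and counts. The dashed line is the 6.85% of all coding genes. Mitochondrial import (10 of 26) is at the top, and T lineage and regulatory T cell genes (0 of 30 each) are at 0.

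Lists of transcription and RNA handling ranged from a share near the 6.85% of all genes, for splicing, to 30.8% (12.7 to 57.6) for the RNA exosome. Among genes with an inhibitor peak at q of at most 0.05 the share was 19.8% over all genes. It was 36.4% for the exosome, 30.4% for RNA polymerase subunits, 20.0% for Mediator, 14.3% for initiation factors and 8.11% for splicing. The median exosome and polymerase genes were 10.6 and 10.8 kb long, and all such genes of 10 to 20 kb had a share of 24.2%. Of 28 RNA polymerase subunit genes 7 were under a region (25%, 12.7 to 43.4), with Polr1c wholly covered, Polr2c of RNA polymerase II at 74.2% (fold 3.31) and Polr3a of RNA polymerase III at 10.9% (fold 2.75). Of 13 RNA exosome genes 4 were, led by Exosc6 (fold 3.17), Exosc10 (fold 2.74) and Exosc3 (fold 2.64, wholly covered). Of 30 Mediator genes 5 were, led by Med29 (fold 2.76), Med11 (fold 2.54, wholly covered) and Med25 (fold 2.45). Of 79 splicing genes 6 were (7.59%, 3.53 to 15.6), led by Lsm4 (fold 3.48, 93.0% of the body), Prpf31 (fold 3.16, a region called for Tfpt) and Snrpd2 (fold 2.91), while 74 held an inhibitor peak with q of at most 0.05. Of 56 translation initiation factor genes 7 were (12.5%), led by the eIF2 kinase gene Eif2ak4 (fold 3.17, a region called for Srp14 that reached 2.58% of the body), Eif2b2 (fold 3.04) and Eif2b5 (fold 2.89).

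In the list of H3K79 methylation and transcription elongation, 6 of 39 genes were under a region (15.4%, 7.25 to 29.7), 16.7% of the 36 with an inhibitor peak at that q. Men1, which encodes menin, a partner of the MLL methyltransferases (chr19:6334979-6340894), held a region of 5.36 kb over 76.6% of its body, with a fold of 3.30 and a -log10 q of 7.74. Nelfe, of the complex that holds RNA polymerase II near the promoter, held one of 5.62 kb (fold 3.00). Paf1, of the elongation complex that helps DOT1L by way of H2B ubiquitination, held one of 5.73 kb (fold 2.76), which also reached Med29. None of these 3 bodies held a control peak. The other 3 were Nelfcd, Ctr9 and Rnf40, of the same elongation complexes or of H2B ubiquitination. Dot1l, the H3K79 methyltransferase gene, was not under a region.

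Cell cycle and replication genes were under a region in 10 of 47 cases (21.3%, 11.99 to 34.9), 22.2% of the 45 with an inhibitor peak at that q. The clamp loader subunit genes Rfc3 (5.58 kb, fold 3.07) and Rfc5 (5.88 kb, fold 2.67) had no control peak, and Gins1 of the replicative helicase (5.92 kb, fold 2.73) had 1.97% of its body under control peaks. Of 44 DNA repair genes 6 were (13.6%): the 3 highest folds were at Ercc2, a TFIIH helicase (2.84), Pms2 of mismatch repair (2.50) and the ligase Lig3 (2.40). Among 29 autophagy genes 4 were (13.8%), led by Atg101 of the initiating kinase complex (fold 3.20, 80.2% of the body), Atg2a (fold 3.19) and Atg16l2 (fold 3.12). Of 394 Zfp zinc finger genes 44 were (11.2%, 8.42 to 14.7), and 6 with a -log10 q of at least 3, led by Zfp688 (fold 3.14), Zfp628 (fold 2.84) and Zfp598 (fold 2.78). The counts were 3 of 10 for the anaphase-promoting complex, 6 of 70 for chaperonins and heat shock proteins, 2 of 25 for the vacuolar proton pump and 1 of 17 for peroxins, the peroxisome assembly factors.

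Genes of T cell identity were not among the regions. None of 30 genes of T lineage specification and the pre-T cell receptor was under one (0%, 0 to 11.4), although 24 held an inhibitor peak with q of at most 0.05. The median gene of the list had 53.3% of its body under control peaks, and by the rule a region lies over none. None of 30 regulatory T cell genes was under a region, with 17 under such an inhibitor peak. Of 34 T cell receptor signalling genes 4 were (11.8%, 4.67 to 26.6), 13.3% of the 30 with such an inhibitor peak. Ptpn6, the phosphatase SHP-1 (chr6:124720707-124738709), held a region of 7.73 kb with a fold of 3.03 and a -log10 q of 5.32. Rela, an NF-κB subunit gene, held one of 7.62 kb over 62.4% of its body (fold 2.32). Nfkb1, another, held one of 17.3 kb over 16.1% (fold 2.16) in a gene with 28.1% under control peaks.

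Among lipid and calcium genes the counts were small, with shares of the lipid lists near the background. Of 37 genes of fatty acid and sterol synthesis, the pathway that the drug acts on, 4 were under a region (10.8%, 4.29 to 24.7), 12.5% of the 32 with an inhibitor peak at q of at most 0.05. Fdps, the farnesyl diphosphate synthase of the mevalonate pathway (chr3:89093588-89101967), held one of 7.74 kb over 78.6% of its body (fold 2.99). Fads1, the delta-5 desaturase (chr19:10182877-10196874), held one of 13.6 kb over 75.02% (fold 2.57). At Lss, the lanosterol synthase, named after its value had been seen, the fold was 2.27. Neither Scd1 nor Scd2 was under a region. Of 31 genes of fatty acid oxidation and uptake 3 were (9.68%, 3.35 to 24.9), 25% of the 12 with such a peak: Acaa1a (fold 2.37), the transporter gene Slc27a1 (fold 2.16) and Acadvl (fold 2.08, shared with Dlg4). Of 34 calcium handling and NFAT genes 1 was, Orai3, a store-operated channel subunit, wholly covered by a region of 17.9 kb (fold 2.52) that shared most bases with its neighbour Setd1a.

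Lists of markers of other cells had at most 1 gene under a region each, in lists too short to set against the background. Among OP9 stromal markers 1 of 12 was (8.33%, 1.49 to 35.4; Thbs1, fold 2.35, with 11.8% of the body under control peaks), and the median marker had 0% of its body under inhibitor peaks of any strength. Among myeloid markers 1 of 10 was (Fcer1g, fold 2.33). None of 9 B cell, 8 natural killer and innate lymphoid or 8 erythroid and megakaryocyte markers was, nor was any of 30 tissue genes silent in blood. Of 1106 olfactory receptor genes none was (0%, 0 to 0.346).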

How the data were processed

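H3K79me2 ChIP-seq peaks of 1 control and 1 inhibitor library were analysed, and the 2 inputs are not analysed here. The submitters' processing notes name BWA, MACS2 2.1.0 and mm10, while the caller's options and any role of the inputs were not stated there. The authors deposited 1 broadPeak list per library with a score, a fold enrichment (a ratio) and −log10 p and q values for each peak. The lists hold no counts, so depth is unknown. The members and the gene lists were chosen with earlier results of these data known.

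Overlaps of at least 1 bp were computed with Python 3.11.15, numpy 2.4.6 and pandas 2.3.3, plots with matplotlib 3.10.9, and 95% Wilson intervals with scipy 1.17.1. The intervals cover counting error only, and neighbouring peaks and genes are not independent. The overlap step was tested on simulated data, where 200 of 200 peaks made without a control peak and 200 of 200 made with one were recovered. Genes and promoter sequences came from RefSeq (GRCm38.p6). Of 21887 coding genes, 17492 have a listed start. The 33 gene lists were matched by symbol (16 lists, 440 of 440 entries) or by name pattern (17 lists). Named regions are those with the highest fold, the highest and lowest −log10 q, the greatest width and the most genes, and in each list the 3 genes with the highest fold. Alternatives changed the q, fold, width and distance limits and which control peaks count. No test between the conditions was run, since each has 1 library. Some named genes of the lists are not reported here.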

Additional observations from a re-analysis of the deposited data

How the results depend on the processing

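In all, 11 alternatives were tried, 10 of them planned. Against 1221 regions, there were 773 with a -log10 q of at least 2, 411 with at least 3, 102 with a fold of at least 3, and 4751 when only control peaks with q of at most 0.05 counted. The 23.3% of peaks without a control peak became 18.2% and 12.7% under the q limits of 2 and 3, 5.45% at a fold of 3, 31.0% for widths under 20 kb, 19.6% with no width limit, 22.0% and 17.1% with no control peak within 1 kb and 5 kb, 90.7% against strong control peaks only, and 33.1% when only control peaks with p of at most 0.05 counted. That last alternative was added after the data had been seen. In the same order of q limits, fold limit and strong control peaks, the median width was 5220, 5327, 4148.5 and 10969 bp, the median fold 2.56, 2.75, 3.18 and 2.68, and the number of coding genes 989, 529, 124 and 5726. Under the p limit the median width was 5705 bp and the median fold 2.42. The share over a start was 51.2% and 53.3% under the q limits and 55.3% against strong control peaks. The median distance to a control peak was 11869 bp at a fold of 3, 14099 bp with none within 5 kb, 568956 bp against strong ones and 14354 bp under the p limit. With a -log10 q of at least 3, 9 mitochondrial ribosomal protein, 6 import, 1 aminoacyl-tRNA synthetase, 3 cell cycle and 6 Zfp genes were under a region, beside 529 of all 21887. With a fold of at least 3 these numbers were 2, 1, 0, 1 and 1, beside 124. Against strong control peaks they were 66, 20, 30, 37 and 169, and T lineage genes 0 except for 6 against strong control peaks and 1 under the p limit. Of 85 respiratory chain and ATP synthase genes, 10 were under a region with a -log10 q of at least 3. With a fold of at least 3 there were 4 of them, and against strong control peaks 67. For 81 cytosolic ribosomal protein genes the same 3 counts were 1, 1 and 53. No paired analysis was possible because each condition has 1 library.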

Other observations

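Noncoding genes lay under some of the regions as well. RefSeq long noncoding RNA genes were met by 130 of 1221 regions (10.6%), against 14.8% of the genic inhibitor peaks of the same limits that met a control peak, or 17.7 and 9.24 genes per Mb covered, so the order depends on the measure. Of 1340 small nucleolar RNA genes, which often sit in introns of ribosomal protein and translation genes, 10 lay under the regions and 206 under the other peaks, or 1.34 and 3.06 per Mb covered. Of 1228 microRNA genes, 20 lay under the regions and 134 under the other peaks, or 2.69 and 1.99 per Mb. The share of peaks with a microRNA gene runs the other way, at 1.47% and 3.14%. They include Mir130b and Mir301b on chromosome 16, Mir219a-1 on chromosome 17 and Mir671 on chromosome 5, names picked after the list had been seen. No tRNA gene of 408 lay under a region, against 10 under the other peaks. These counts were not tested, and a peak over a small RNA gene can lie over its host gene too.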
